A study of Mus musculus with 12 samples.

Results

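The genes described here are 10 that encode enzymes of glycolysis, chosen by name from hexokinase to lactate dehydrogenase: Hk2, Gpi1, Pfkl, Aldoa, Tpi1, Pgk1, Pgam1, Eno1, Pkm and Ldha. They are 10 of the 32248 gene rows of the count table, and all 10 were among the 13772 genes that had enough reads to be tested. Glycolysis breaks glucose down to pyruvate in the cytosol and yields ATP and NADH, and lactate dehydrogenase can then turn pyruvate into lactate, which restores the NAD+ that the pathway uses. Many of its genes are known targets of the hypoxia-inducible factors and of MYC. Cells of the osteoblast lineage are known to rely strongly on glycolysis.

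The cells were OCY454, a mouse osteocyte-like line that is kept at 33 °C and differentiates at 37 °C. In the Piezo1 knockout (KO), exons 19 to 21 of Piezo1, the gene of a mechanically gated cation channel, had been removed with CRISPR-Cas9, and unedited OCY454 cells were the wild type (WT). Poly(A) RNA was sequenced from KO and WT cells at days 1, 14 and 28 at 37 °C, with 2 libraries in each of the 6 groups. The labels do not say how many edited clones the KO line came from or whether the replicates were separate cultures, so a p-value here reflects no more than how far these libraries differ, and the deletion cannot be told apart from other differences between the lines.

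Library totals ran from 8590132 to 15357433 counts. Piezo1 averaged 170 ± 0.323, 111 ± 4.76 and 279 ± 4.19 CPM (depth-scaled counts on TMM-adjusted library totals, SD, n = 2 each) in KO at days 1, 14 and 28, and 215 ± 1.13, 208 ± 3.25 and 238 ± 4.73 CPM in WT. These counts cover the whole gene and not the deleted exons alone, so they do not check the labels. The osteoblast marker Col1a1 was abundant, between 1710 and 17900 CPM, but Bglap (1.3 to 6.58 CPM) and Bglap2 (5.14 to 50.3 CPM) were not. The osteocyte markers Dmp1 (3.68 to 16.1 CPM) and Sost (0.343 to 1.3 CPM) were low, and Fgf23 was at 0 in 7 of the 12 libraries. Pdpn (14.1 to 59.9 CPM) and Fam20c (28.9 to 56.5 CPM) were the higher ones of that list. Of the skeletal muscle markers, Myod1 and Myog were at 0 in all 12. The 9 osteoblast markers summed to 36900 to 37100 CPM in KO and 20900 to 22100 CPM in WT at day 14, and to 6450 to 9000 CPM in KO and 7870 to 11000 CPM in WT at day 28. At day 1 the same sums were 14700 to 14800 CPM in KO and 14600 to 15000 CPM in WT. Col1a1 and Col1a2 reached the highest levels of the 9 (up to 17900 and 14900 CPM), so they weigh most in the sums. Single markers went both ways at day 14, as given below.

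As a set, the glycolytic genes differed most between replicates in WT at day 28. There, 9 of the 10 genes were lower in replicate 2 than in replicate 1, with a median log2 ratio of -0.66 and 7 genes differing by more than 1.5-fold. Among all 9326 genes with at least 10 CPM in that group, 1.79% differed by more than 1.5-fold, and 0.933% had a ratio below that median. In the other 5 groups the median ratio of the 10 genes lay between -0.09 and 0.14, and the only gene to differ by more than 1.5-fold was Pgam1 in KO at day 28, by 1.99-fold. For this reason the KO minus WT values of the 10 genes at day 28 are also given without each of those WT libraries, and values of other genes where a call changed or the value moved most. Smaller shared shifts occurred in other groups. In KO at day 14 all 10 genes were higher in replicate 2, and their median ratio of 0.14 lay above 88.6% of genes. In WT at day 1, 9 of the 10 were lower in replicate 2.

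**Figure D1:**
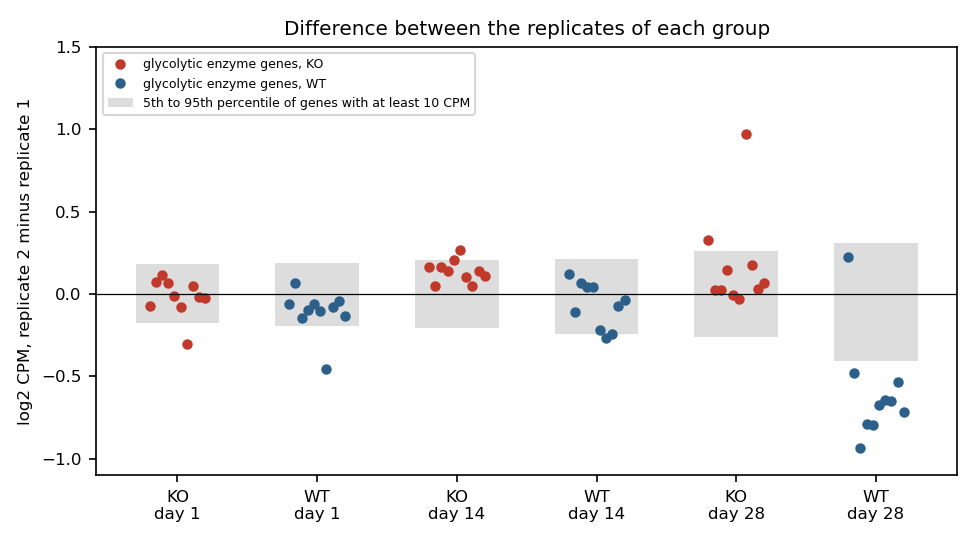
Difference in log2 CPM between replicate 2 and replicate 1 of each group, with 1 point for each of the 10 glycolytic enzyme genes (red KO, blue WT) and a grey bar from the 5th to the 95th percentile of all genes with at least 10 CPM. In WT at day 28, 9 of the 10 genes lie below 0, around a median of -0.66, while in the other groups the medians lie between -0.09 and 0.14.

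The promoters of 4 of the 10 genes are shown, taken from RefSeq on GRCm38.p6 in windows around the annotated start. Hk2 is the gene that departed from the others, Pfkl had the lowest KO minus WT value at day 1, Gpi1 the least low, and Pgk1 has a pair of matches close together. The windows are at chr6:82774405-82774704 on the minus strand for Hk2, chr7:34230287-34230586 on the minus strand for Gpi1, chr10:78009758-78010057 on the minus strand for Pfkl and chrX:106186850-106187149 on the plus strand for Pgk1. Each is written along the strand of its gene, and capitals mark ACGTG or GCGTG, which hold the core letters of sites of the hypoxia-inducible factors, read on either strand (CACGT or CACGC where the match is on the other strand).
Hk2: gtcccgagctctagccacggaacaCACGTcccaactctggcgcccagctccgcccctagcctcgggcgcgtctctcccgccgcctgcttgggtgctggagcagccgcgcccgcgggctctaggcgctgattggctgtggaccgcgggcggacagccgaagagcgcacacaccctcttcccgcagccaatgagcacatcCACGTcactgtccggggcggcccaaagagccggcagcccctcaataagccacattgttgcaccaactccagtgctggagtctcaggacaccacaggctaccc
Gpi1: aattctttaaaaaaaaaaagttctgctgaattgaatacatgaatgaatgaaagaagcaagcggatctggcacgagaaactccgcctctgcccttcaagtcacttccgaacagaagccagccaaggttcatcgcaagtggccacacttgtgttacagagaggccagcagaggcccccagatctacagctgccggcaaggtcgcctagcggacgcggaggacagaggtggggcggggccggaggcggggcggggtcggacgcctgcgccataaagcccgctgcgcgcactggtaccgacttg
Pfkl: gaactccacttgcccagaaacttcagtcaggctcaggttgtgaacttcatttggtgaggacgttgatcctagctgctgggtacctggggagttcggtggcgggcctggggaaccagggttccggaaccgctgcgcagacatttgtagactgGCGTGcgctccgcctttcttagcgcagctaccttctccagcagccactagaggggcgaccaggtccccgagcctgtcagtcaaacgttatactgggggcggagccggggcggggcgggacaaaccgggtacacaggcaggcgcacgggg
Pgk1: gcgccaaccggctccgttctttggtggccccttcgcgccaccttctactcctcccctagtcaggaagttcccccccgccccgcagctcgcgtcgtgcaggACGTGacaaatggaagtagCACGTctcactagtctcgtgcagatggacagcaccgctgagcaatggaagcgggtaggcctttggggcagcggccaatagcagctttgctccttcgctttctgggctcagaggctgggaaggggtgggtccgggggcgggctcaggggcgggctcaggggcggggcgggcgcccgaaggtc
The 5-letter words were found at positions -226 and -52 from the start of Hk2, at -99 in Pfkl and at -150 and -131 in Pgk1, and Gpi1 had none. All 10 genes had a window in the table. Of these, 7 held a match (Hk2, Pfkl, Aldoa, Pgk1, Pgam1, Eno1 and Ldha), or 70%, against 61.1% of the 13470 windows of the genes tested and 43.8% of all 32851 windows. Gpi1, Tpi1 and Pkm held none. The Eno1, Pkm, Tpi1, Pgam1 and Ldha windows were set on starts 244, 208, 138, 52 and 49 bases from those of the main transcripts. Each of the 10 genes gave 1 window, the nearest to that start, while the other shares count every window of a gene. No window of the 10 held CACGTG, the letters of the site that MYC and related factors bind. A match is only a run of letters and does not show that a factor binds there.

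At day 1 all 10 genes were lower in KO than in WT. Their KO minus WT log2 fold changes ran from -1.86 to -0.73, with a median of -1.32, which is a KO level of 0.399 times the WT level. The summed level of the 10 genes was 1741 and 1742 CPM in the KO libraries, against 3769 and 3567 CPM in the WT libraries. In all 10 both KO libraries lay below both WT libraries, as they did in 37.4% of all genes tested. A call here and below is an adjusted p below 0.05 in edgeR's quasi-likelihood test on the 12 libraries, with Benjamini-Hochberg adjustment over the genes tested. The lines differed widely, so calls were common: 40.3% of the genes tested were called at day 1, 19.5% higher and 20.8% lower in KO, and the median of all genes was -0.01. With library totals in place of TMM scaling, 38.3% of the called genes at day 1 were higher in KO, against 48.4% with TMM, and the 10 glycolytic genes were still all called lower. Mitochondrially encoded genes took 2.31% of the counts in both KO libraries at day 1, and 1.35% and 1.8% in the WT libraries. At day 14 they took 1.88% and 1.93% in KO and 1.33% and 1.12% in WT. At day 28 their shares were 1.73% and 1.47% in KO and 2.02% and 1.73% in WT. Their part in the results was not tested. In bulk RNA, fewer cells expressing a gene and less of its RNA per cell cannot be told apart.

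At day 14 the difference was smaller: 6 of the 10 genes were lower in KO, none was higher and 4 were not called, with a median of -0.39 and a range of -0.81 to -0.06. Of all genes tested, 49.7% were called at this day, 23.8% higher and 25.9% lower in KO. The osteoblast marker sums given above also differed at this day, but of the 9 markers 5 were called higher in KO and 4 lower. The part of these markers in the result was not tested. The KO libraries lay below the WT libraries in 9 of the 10 genes, all but Pkm, and in 39.2% of all genes tested. In the fit to the 4 libraries of day 14 alone, Aldoa and Ldha were called lower as well. At day 28 all 10 were again lower in KO, between -1.51 and -0.28 with a median of -0.92, where 41.0% of all genes were called, 19.8% higher and 21.2% lower. The KO libraries lay below the WT libraries in 9 genes, all but Pgam1, and in 32.8% of all genes tested. With library totals only, 32.9% of the called genes at day 28 were higher in KO, against 48.4% with TMM, and all 10 glycolytic genes were called lower with either. With DESeq2's Wald test Pgam1 was not called at day 28 (-0.71, adjusted p = 0.132). Hk2 (-0.29, edgeR adjusted p = 0.0976) and Pgam1 (-0.71, adjusted p = 0.0743) were not called in the fit to the 4 libraries of that day. Without replicate 1 of WT at day 28, 9 genes were called lower with a median of -0.57, and without replicate 2, 9 were called lower with a median of -1.18. Leaving out either of them alone gave a day 14 median of -0.39, with 8 genes called.

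**Figure D2:**
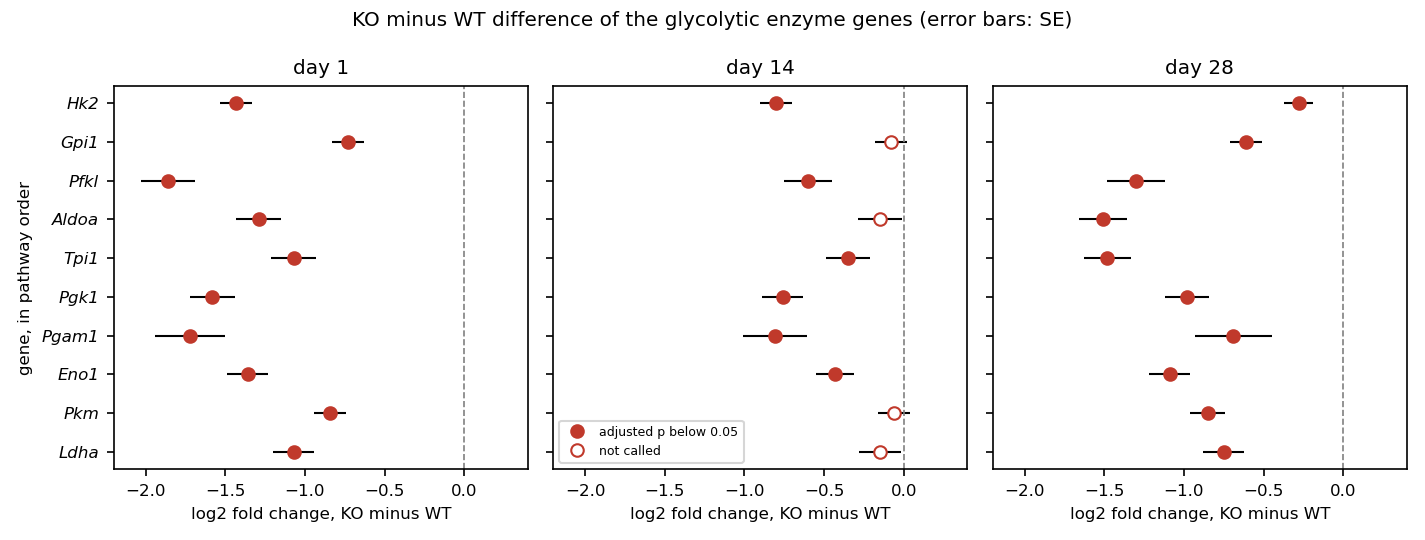
KO minus WT log2 fold change of the 10 glycolytic enzyme genes in pathway order at days 1, 14 and 28, with bars for the standard error and filled points for genes called at an adjusted p below 0.05. All points lie below 0, and the 4 open points at day 14 are Gpi1, Aldoa, Pkm and Ldha.

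The upper part of the pathway spends ATP to split glucose. Hk2 encodes hexokinase 2, which traps glucose in the cell by phosphorylating it (ENSMUSG00000000628.10, chromosome 6, 82725025 to 82774454, minus strand, GRCm38). It held 38.7 and 36.7 CPM in KO at day 1, 68.4 and 76.7 CPM in KO at day 14 and 86.3 and 108 CPM in KO at day 28, against 104 and 99.3 CPM in WT at day 1, 121 and 132 CPM in WT at day 14 and 109 and 128 CPM in WT at day 28. The KO libraries lay below the WT libraries at every day, and at day 28 the highest KO library came to within about 1 CPM of the lowest WT library. The KO minus WT change of Hk2 was -1.43 ± 0.10 at day 1 (SE, adjusted p = 4.85e-10), -0.80 ± 0.10 at day 14 (adjusted p = 8.04e-07) and -0.28 ± 0.09 at day 28 (adjusted p = 0.0214), all by edgeR. The day 28 call was lost without replicate 1 of KO (-0.12) or replicate 2 of WT (-0.15), and the value was -0.38 without replicate 1 of WT.

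Gpi1 encodes glucose-6-phosphate isomerase, which makes fructose 6-phosphate (ENSMUSG00000036427.5, chromosome 7, 34201330 to 34230336, minus strand). Its levels were 107 and 112.5 CPM in KO at day 1, 138 and 143 CPM in KO at day 14 and 76.8 and 78.1 CPM in KO at day 28, against 178 and 186 CPM, 154 and 143 CPM, and 138 and 98.8 CPM in WT at the same days. The lines were apart at days 1 and 28, and at day 14 the highest KO and the lowest WT library were both at 143 CPM. Gpi1 was lower in KO by a log2 change of -0.73 ± 0.10 at day 1 and -0.61 ± 0.10 at day 28 (edgeR adjusted p = 3.97e-06 and 5.2e-05), and the day 14 difference of -0.08 ± 0.10 was not called (adjusted p = 0.523). At day 28 it was -0.35 without replicate 1 of WT and -0.83 without replicate 2, called in both cases.

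Pfkl encodes the liver-type subunit of phosphofructokinase, the committed and most regulated step (ENSMUSG00000020277.10, chromosome 10, 77986947 to 78010083, minus strand). It held 32.6 and 35.4 CPM in KO at day 1, 106.5 and 119 CPM in KO at day 14 and 24.9 and 25.3 CPM in KO at day 28, against 129.7 and 117 CPM, 168 and 176 CPM, and 80.7 and 42.1 CPM in WT at the same days. All KO libraries lay below the WT libraries of their day. The log2 change of Pfkl was -1.86 ± 0.17 at day 1 (edgeR adjusted p = 1.66e-08), -0.60 ± 0.15 at day 14 (adjusted p = 0.00219) and -1.30 ± 0.18 at day 28 (adjusted p = 6.81e-06). At day 28 it was -0.74 without replicate 1 of WT and -1.68 without replicate 2, called in both cases.

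Aldoa encodes aldolase A, which splits fructose 1,6-bisphosphate (ENSMUSG00000030695.16, chromosome 7, 126795234 to 126800751, minus strand). It held 189 and 198 CPM in KO at day 1, 399 and 440.1 CPM in KO at day 14 and 90.9 and 100.5 CPM in KO at day 28, against 489.6 and 457 CPM, 461 and 474 CPM, and 345 and 199.8 CPM in WT at the same days. Its KO level at day 14 came close to that of WT, and at day 28 it had the lowest KO minus WT value of the 10 genes. The log2 change of Aldoa was -1.29 ± 0.14 at day 1 and -1.51 ± 0.15 at day 28 (edgeR adjusted p = 2.67e-07 and 5.99e-08), while -0.15 ± 0.14 at day 14 was not called (adjusted p = 0.369). The day 14 change was called in the fit to the 4 libraries of that day (-0.15, edgeR adjusted p = 0.0093). At day 28 it was -1.06 without replicate 1 of WT and -1.84 without replicate 2.

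Tpi1 encodes triosephosphate isomerase, which lets both products of the split go on through the pathway (ENSMUSG00000023456.15, chromosome 6, 124810586 to 124814296, minus strand). It held 176 and 174 CPM in KO at day 1, 365 and 422 CPM in KO at day 14 and 84.1 and 83.6 CPM in KO at day 28, against 376 and 360.1 CPM, 495 and 509 CPM, and 297 and 171 CPM in WT at the same days. No KO library of Tpi1 reached the WT libraries of its day. Its log2 change was -1.07 ± 0.14 at day 1 and -1.48 ± 0.15 at day 28 (edgeR adjusted p = 3.25e-06 and 8.47e-08). At day 28 it was -1.03 without replicate 1 of WT and -1.82 without replicate 2. The value at day 14 was -0.35 ± 0.14 (adjusted p = 0.0394), and this call was lost without any 1 of 6 libraries, namely both WT libraries of day 1, both WT libraries of day 14, replicate 1 of KO at day 14 and replicate 2 of KO at day 1, with values from -0.37 to -0.25 and adjusted p from 0.0527 to 0.275.

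The lower part of the pathway recovers ATP and ends in pyruvate. Pgk1 encodes phosphoglycerate kinase 1, the first ATP-producing enzyme (ENSMUSG00000062070.12, chromosome X, 106187100 to 106203699, plus strand). It held 42.5 and 40.1 CPM in KO at day 1, 81.4 and 97.8 CPM in KO at day 14 and 38.8 and 38.0 CPM in KO at day 28, against 128 and 119 CPM, 163 and 139.5 CPM, and 92.8 and 58.0 CPM in WT at the same days. The lines were apart at every day. Pgk1 was lower in KO by a log2 change of -1.58 ± 0.14, -0.76 ± 0.13 and -0.98 ± 0.14 at days 1, 14 and 28 (edgeR adjusted p = 1.37e-08, 6.75e-05 and 1.43e-05). The day 28 value was -0.60 without replicate 1 of WT and -1.27 without replicate 2, called in both cases.

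Pgam1 encodes phosphoglycerate mutase 1, which moves the phosphate group before the enolase step (ENSMUSG00000011752.7, chromosome 19, 41911923 to 41918660, plus strand). It had the fewest reads of the 10 genes, with 10.85 and 8.76 CPM in KO at day 1, 22.4 and 24.0 CPM in KO at day 14 and 7.01 and 13.9 CPM in KO at day 28, against 37.3 and 27.1 CPM, 44.1 and 36.6 CPM, and 21.0 and 13.4 CPM in WT at the same days. The libraries of Pgam1 overlapped between the lines at day 28 alone. Its log2 change was -1.72 ± 0.22 at day 1 (edgeR adjusted p = 2.83e-06), -0.81 ± 0.20 at day 14 (adjusted p = 0.00238) and -0.69 ± 0.24 at day 28 (adjusted p = 0.0228). The day 28 call was lost without replicate 1 of KO (-0.32) or replicate 1 of WT (-0.31), and the day 14 call without replicate 1 of WT at day 14 (-0.65, adjusted p = 0.0544). Without replicate 2 of KO at day 28 the day 28 value was -1.31, and without replicate 2 of WT it was -0.96.

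Eno1 encodes enolase 1, which makes phosphoenolpyruvate (ENSMUSG00000063524.13, chromosome 4, 150236721 to 150248879, plus strand). It held 135 and 140 CPM in KO at day 1, 243 and 251 CPM in KO at day 14 and 88.1 and 99.4 CPM in KO at day 28, against 362 and 343 CPM, 361 and 305 CPM, and 245 and 156 CPM in WT at the same days. Every KO library lay below both WT libraries of its day. The log2 change of Eno1 was -1.36 ± 0.13 at day 1, -0.43 ± 0.12 at day 14 and -1.09 ± 0.13 at day 28 (edgeR adjusted p = 3.28e-08, 0.00673 and 1.04e-06). The day 14 call was lost without replicate 1 of KO (-0.41) or replicate 1 of WT (-0.30) at that day. The day 28 value was -0.73 without replicate 1 of WT and -1.38 without replicate 2.

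Pkm encodes the pyruvate kinase of most tissues other than liver and red cells, the last ATP-producing step (ENSMUSG00000032294.17, chromosome 9, 59656368 to 59679375, plus strand). Its splice forms were not counted apart. It held 644 and 636 CPM in KO at day 1, 979 and 1077 CPM in KO at day 14 and 412 and 419.5 CPM in KO at day 28, against 1166 and 1131 CPM, 1095 and 1041 CPM, and 886 and 610.4 CPM in WT at the same days. The lines overlapped at day 14 and were apart at days 1 and 28. The log2 change of Pkm was -0.84 ± 0.10 at day 1 and -0.85 ± 0.11 at day 28 (edgeR adjusted p = 1.5e-06 and 1.63e-06), and -0.06 ± 0.10 at day 14 (adjusted p = 0.688). At day 28 it was -0.55 without replicate 1 of WT and -1.09 without replicate 2.

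Ldha encodes lactate dehydrogenase A, which favours the step from pyruvate to lactate (ENSMUSG00000063229.15, chromosome 7, 46841475 to 46855627, plus strand). It held 366 and 360.2 CPM in KO at day 1, 618 and 667 CPM in KO at day 14 and 213 and 222 CPM in KO at day 28, against 799.8 and 728 CPM, 723 and 705 CPM, and 454 and 276 CPM in WT at the same days. KO libraries were below WT libraries at all 3 days, by a narrow margin at day 14. Ldha was lower in KO by a log2 change of -1.07 ± 0.13 at day 1 and -0.75 ± 0.13 at day 28 (edgeR adjusted p = 9.57e-07 and 9.64e-05), and -0.15 ± 0.13 at day 14 was not called (adjusted p = 0.337). The day 14 change was called in the fit to the 4 libraries of that day (-0.15, edgeR adjusted p = 0.00658). The day 28 value was -0.34 without replicate 1 of WT and -1.06 without replicate 2.

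**Figure D3:**
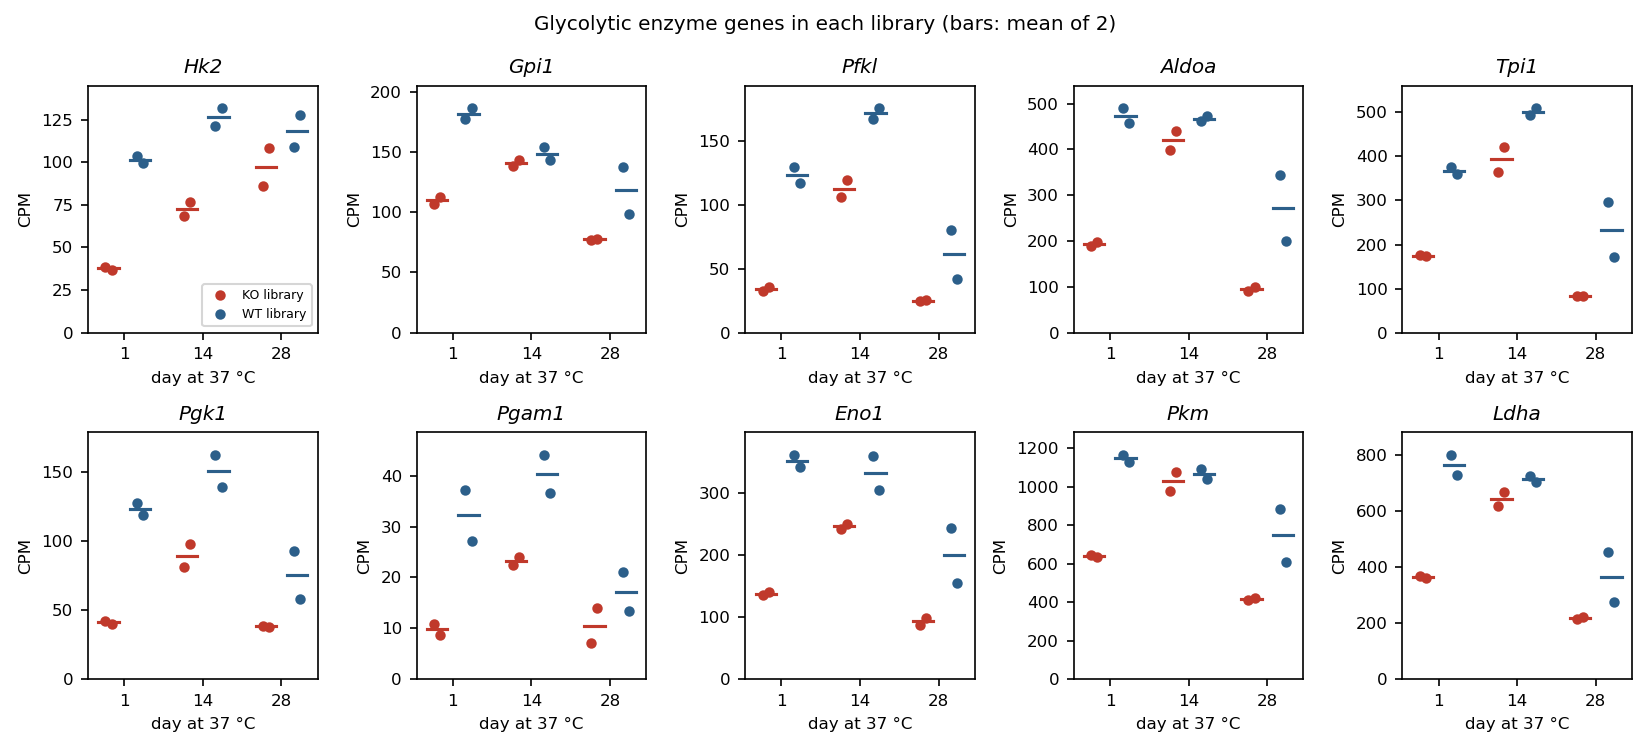
CPM of the 10 glycolytic enzyme genes in each of the 12 libraries by day at 37 °C (red KO, blue WT, bars for the mean of 2 libraries, linear axes from 0). In 9 panels the KO points are highest at day 14, while in the Hk2 panel they are highest at day 28, at 86.3 and 108 CPM.

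Per kilobase of transcript, which allows genes to be set side by side, Pkm stood first and Ldha second in all 6 groups. In WT at day 1 Pkm averaged 472 ± 9.90, Ldha 432 ± 29.0, Aldoa 314 ± 14.8, Tpi1 229 ± 7.07 and Eno1 174 ± 7.07 CPM per kb (SD, n = 2). Pgk1 (67.6 ± 3.46) and Gpi1 (63.0 ± 2.05) followed within about their spread of each other, then Pfkl (33.1 ± 2.40), and last Hk2 (18.4 ± 0.566) and Pgam1 (18.2 ± 4.03), which did not differ beyond theirs. In KO at day 1 the same order held down to Eno1 among the 10 genes, from Pkm at 264 ± 2.12 and Ldha at 206 ± 2.12 CPM per kb to Eno1 at 67.9 ± 1.70. In KO at day 28 Hk2, at 17.7 ± 2.83 CPM per kb, stood above Pfkl at 6.74 ± 0.0778. The order was the same in WT at day 28, with Hk2 at 21.5 ± 2.4 and Pfkl at 16.5 ± 7.28, though within their spread.

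Over time the KO line held a peak at day 14. From day 1 to day 14 all 10 genes rose in KO, by log2 changes from 0.36 in Gpi1 to 1.73 in Pfkl with a median of 1.03, in a comparison where 37.5% of all genes were called, 19.4% higher and 18.0% lower. The summed level was 3021 and 3318 CPM at day 14 in KO, against 1741 and 1742 CPM at day 1. The Gpi1 call was lost without replicate 1 of KO at day 1 or replicate 2 of KO at day 14 (adjusted p = 0.0706 and 0.0636). From day 14 to day 28 in KO, 9 genes fell and Hk2 rose, with a median of -1.35, where 50.7% of all genes were called, 25.6% higher and 25.1% lower. The falls reached -2.23 ± 0.15 in Tpi1, -2.17 ± 0.18 in Pfkl and -2.13 ± 0.15 in Aldoa (edgeR adjusted p = 7.14e-11, 1.42e-09 and 1.33e-10). The summed level at day 28 in KO was 1121 and 1189 CPM. Against day 1, 6 genes were lower at day 28 in KO, Hk2 was higher, and Pfkl, Pgk1 and Pgam1 were not called (55.5% of all genes were called, 28.2% higher and 27.4% lower).

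In WT the pattern from day 1 to day 14 was flatter. Hk2 (0.31), Pfkl (0.47) and Tpi1 (0.45) were higher at day 14 in WT, Gpi1 was lower (-0.29) and 6 genes were not called, where 34.1% of all genes were called, 18.2% higher and 15.9% lower. Leaving out 1 of the 4 libraries of WT at days 1 and 14 left between 0 and 2 calls, and leaving out any of the 12 between 0 and 5. With library totals only, 41.1% of the called genes in this comparison were higher at day 14, against 53.3% with TMM. The summed level was 3785 and 3660 CPM at day 14 in WT, against 3769 and 3567 CPM at day 1. From day 14 to day 28 in WT 9 genes fell, with a median of -0.87, and Hk2 was not called (-0.09), where 34.7% of all genes were called, 17.9% higher and 16.8% lower. Against day 1, 9 genes were lower at day 28 in WT, with a median of -0.75 (48.0% of all genes called, 24.6% higher and 23.4% lower). The summed level at day 28 was 2668 and 1753 CPM. Without replicate 1 of WT at day 28 the median change from day 14 to day 28 was -1.30, and without replicate 2 it was -0.55, with 9 and 8 genes lower. The median change from day 1 to day 28 was -1.14 and -0.43 in these fits.

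The change over time differed between the lines. From day 1 to day 14 the KO change exceeded the WT change in all 10 genes, by 0.63 in Hk2 to 1.25 in Pfkl with a median of 0.87, where 18.8% of all genes were called, 9.19% higher and 9.65% lower. Aldoa, for example, rose by 1.12 ± 0.14 in KO (edgeR adjusted p = 2.45e-06) and changed by -0.02 ± 0.14 in WT (adjusted p = 0.934). Their difference of 1.14 ± 0.20 had an adjusted p of 0.000294. Tpi1 and Pgam1 lost the call when single libraries were left out, and the other 8 kept it. From day 14 to day 28 the KO change was lower than the WT change in 7 genes, higher in Hk2 and not called in Pgk1 and Pgam1 (24.1% of all genes called, 12.6% higher and 11.5% lower). Its median was -0.63, and -0.23 without replicate 1 of WT at day 28 or -0.93 without replicate 2, with 5 and 8 genes lower. Over the whole span from day 1 to day 28, Hk2 (1.15), Pgam1 (1.03) and Pgk1 (0.60) were higher in the KO change and 7 were not called, where 20.0% of all genes were called, 10.6% higher and 9.46% lower. This count depends on the WT libraries at day 28: without replicate 1 there were 8 higher and 0 lower, and without replicate 2 there were 2 higher and 3 lower. The Hk2 difference was 1.05 and 1.27 in these fits. Leaving out 1 library at a time over all 12 gave between 1 and 8 calls.

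Hk2 followed a course of its own. Over the 12 libraries its log2 CPM had a Pearson r of 0.356 with the mean of the other 9 genes, each centred, while the other genes had values between 0.923 and 0.987 in the same measure. These are descriptions over libraries that share the 6 groups, with no test. Hk2 rose in KO by 0.95 ± 0.11 from day 1 to day 14 (edgeR adjusted p = 5.1e-07) and by 0.43 ± 0.10 from day 14 to day 28 (adjusted p = 0.000926), and by 1.37 ± 0.10 from day 1 to day 28 (adjusted p = 4.24e-10). In WT its change from day 1 to day 28 was 0.22 ± 0.09 with an adjusted p of 0.0527, next to the threshold. It was called with DESeq2's size factors (0.23, adjusted p = 0.0465), with the replicate block (0.22, adjusted p = 0.0322) and without replicate 1 of WT at day 28 (0.33, adjusted p = 0.00222), and was 0.11 without replicate 2 (adjusted p = 0.358). The rise of Hk2 from day 14 to day 28 in KO was not called without replicate 2 of KO at day 28 (0.25, adjusted p = 0.0596).

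The step between Tpi1 and Pgk1 is that of glyceraldehyde-3-phosphate dehydrogenase, encoded by Gapdh, which is often used as a reference gene. Gapdh averaged 157 ± 4.34, 237 ± 7.15 and 104 ± 3.14 CPM in KO at days 1, 14 and 28, and 287 ± 7.28, 292 ± 38.0 and 192 ± 36.8 CPM in WT (SD, n = 2). It was lower in KO by -0.87 ± 0.10, -0.30 ± 0.09 and -0.89 ± 0.10 (edgeR adjusted p = 2.84e-07, 0.0119 and 3.44e-07). Its KO level was highest at day 14, as in the 9 genes other than Hk2. At day 28 its value was -0.68 without replicate 1 of WT and -1.07 without replicate 2.

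Most steps have other isozyme genes, and these did not all move with the 10. They were counted in a list of 14 genes, of which 10 were tested. The list also held Gapdh and Bpgm, which are not isozyme genes of the 10. Gapdh was counted among the lower genes at each day, and Bpgm among the higher at days 1 (0.42 ± 0.12) and 14 (0.38 ± 0.13). Of all genes tested, 19.5%, 23.8% and 19.8% were called higher and 20.8%, 25.9% and 21.2% lower in KO at days 1, 14 and 28. Of the 10 tested genes of the list, 3 were higher in KO at day 1, 3 were lower and 4 were not called. At day 14 the counts were 4, 4 and 2, and at day 28 they were 1, 4 and 5. Without replicate 1 of WT at day 28, 2 were higher and 2 lower at that day, and without replicate 2, 0 were higher and 4 lower. Ldhb encodes the heart-type subunit of lactate dehydrogenase, which favours the step from lactate to pyruvate, and it went the other way from Ldha. It averaged 19.0 ± 1.28, 33.7 ± 2.03 and 15 ± 2.13 CPM in KO, against 9.07 ± 1.33, 15.8 ± 0.482 and 11.2 ± 2.57 CPM in WT, at days 1, 14 and 28. Ldhb was higher in KO by 1.06 ± 0.15, 1.09 ± 0.14 and 0.41 ± 0.16 (edgeR adjusted p = 1.12e-05, 2.19e-06 and 0.0379). The day 28 call was lost without replicate 2 of WT (0.22). Per length, Ldha still made up 93.4% of the summed level of Ldha and Ldhb in KO and 98.4% in WT at day 1.

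Eno3, the muscle-type enolase gene, was also higher in KO, at 34.8 ± 1.83 and 35.8 ± 0.341 CPM in KO against 14.8 ± 0.235 and 9.32 ± 0.414 CPM in WT at days 1 and 14. Its log2 change was 1.23 ± 0.12 at day 1 and 1.94 ± 0.14 at day 14 (edgeR adjusted p = 8.21e-08 and 4.39e-10), and 0.18 ± 0.15 at day 28, which was not called (adjusted p = 0.368) but was called without replicate 1 of WT (0.46, adjusted p = 0.0465). The share of Eno1 in the summed level per length of Eno1, Eno2 and Eno3 was 69.6% and 71.2% in the KO libraries at day 1, against 91.4% and 90.6% in the WT libraries. Eno2, the neuron-type gene, was lower in KO by -0.31, -0.41 and -0.65 at days 1, 14 and 28, called at each day (adjusted p = 0.0486 at day 1).

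The phosphofructokinase genes also differed from each other. Pfkm, the muscle-type gene, was called at day 14 alone (0.31 ± 0.08, edgeR adjusted p = 0.0024), with 0.11 ± 0.07 at day 1 and 0.04 ± 0.08 at day 28. Pfkp, the platelet-type gene, had log2 changes of 0.04 ± 0.10, -0.14 ± 0.10 and -0.02 ± 0.10 and was called at no day (adjusted p = 0.8, 0.244 and 0.865). Pfkl made up 18.3% and 19.6% of the summed level per length of the 3 genes in the KO libraries at day 1, against 48% and 46.5% in the WT libraries. At day 14 its share was 39.3% and 38.6% in KO, against 50.6% and 50.3% in WT. Hk1, the widely expressed hexokinase gene, was lower in KO by -0.51 ± 0.10, -0.46 ± 0.10 and -0.42 ± 0.10 (edgeR adjusted p = 0.000363, 0.000703 and 0.00298), and at day 28 the call was lost without replicate 1 of WT (-0.17). The Hk2 share of Hk1 and Hk2 together was 21.5% and 19% in the KO libraries at day 1, against 31.8% and 33% in the WT libraries, and 43.5% and 48.8% in KO against 38.7% and 50% in WT at day 28. Aldoc and Pgam2 were expressed at under 7 CPM on average in each group. Aldoc was lower at days 14 (-2.31) and 28 (-1.14), with the day 28 call lost without replicate 1 of WT (-0.95, adjusted p = 0.0506), and Pgam2 was not called at any day.

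**Figure D4:**
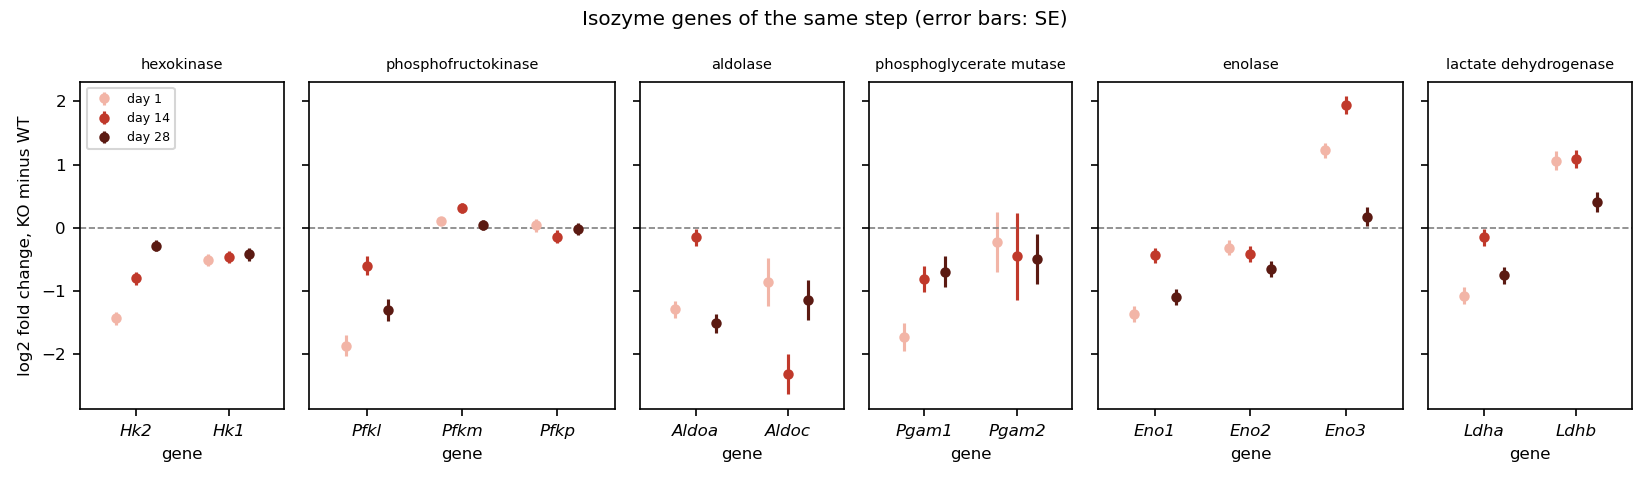
KO minus WT log2 fold change of the isozyme genes of 6 steps at days 1, 14 and 28 (light to dark), with bars for the standard error. Ldhb and Eno3 lie above 0 at days 1 and 14 while Ldha and Eno1 lie below it, and Pfkm and Pfkp lie near 0 where Pfkl does not.

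Genes around the pathway were counted in 7 further lists. For comparison, 19.5%, 23.8% and 19.8% of all genes were called higher and 20.8%, 25.9% and 21.2% lower at days 1, 14 and 28. Of 8 glucose and lactate transporter genes tested, 5 were lower in KO at each day, with 1, 0 and 1 higher at days 1, 14 and 28. Slc2a1, the main basal glucose transporter, averaged 21.6 ± 1.88, 54.0 ± 6.30 and 47.4 ± 3.55 CPM in KO, against 105 ± 2.04, 147 ± 1.52 and 79.2 ± 11.5 CPM in WT, at days 1, 14 and 28. It was lower in KO by -2.29 ± 0.10, -1.44 ± 0.09 and -0.74 ± 0.10 (edgeR adjusted p = 4.9e-13, 7.83e-11 and 2.87e-06). Slc16a3, which exports lactate, was low in both lines (1.01 ± 0.498 CPM in KO and 6.37 ± 0.836 CPM in WT at day 1) and was lower in KO by -2.67 ± 0.41, -3.54 ± 0.38 and -3.26 ± 0.44 (edgeR adjusted p = 2.08e-05, 1.51e-07 and 5.63e-06). At day 28 it was -2.33 without replicate 1 of WT and -3.78 without replicate 2. Slc2a4, the insulin-responsive glucose transporter, was lower by -1.07, -0.78 and -0.52.

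Of 10 regulators of glycolytic flux, 6 were higher and 1 lower in KO at day 1, 3 higher and 2 lower at day 14, and 4 higher and 3 lower at day 28. Pdk1, whose kinase holds pyruvate back from the mitochondrial dehydrogenase, was the regulator that was lower at day 1, at 38.0 ± 1.49 CPM in KO against 181 ± 7.36 CPM in WT. Its log2 change was -2.25 ± 0.16, -1.15 ± 0.15 and -1.92 ± 0.17 (edgeR adjusted p = 3.08e-10, 1.36e-06 and 1.63e-08). Txnip, which restrains glucose uptake, was higher in KO, at 110 ± 0.961 and 46.5 ± 5.96 CPM in KO against 13.7 ± 0.736 and 10.4 ± 0.515 CPM in WT at days 1 and 14. At day 28 its levels were 7.18 ± 0.607 CPM in KO and 6.72 ± 0.754 CPM in WT, and the difference of 0.09 ± 0.16 was not called (adjusted p = 0.669). Pfkfb3, whose enzyme makes an activator of phosphofructokinase, was higher in KO at days 1 (0.48 ± 0.11) and 28 (0.93 ± 0.12).

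The lists of neighbouring pathways can be read against the shares of all genes called higher (19.5%, 23.8% and 19.8%) and lower (20.8%, 25.9% and 21.2%) at days 1, 14 and 28. Of 8 genes of glycogen metabolism, 4 were lower in KO at each day, with 0, 1 and 1 higher at days 1, 14 and 28. They include Pygl, a glycogen phosphorylase (-2.51 ± 0.24, -0.92 ± 0.18 and -1.81 ± 0.21), Pgm1, a phosphoglucomutase (-1.37, -0.66 and -0.65), and Gbe1, the branching enzyme (-1.30, -0.76 and -0.42). Without replicate 1 of WT at day 28, 2 of the 8 were lower at that day, and the Gbe1 call was lost (-0.23, adjusted p = 0.282). Of 7 pentose phosphate genes 0 were lower and 2, 3 and 3 were higher. They include Taldo1, which encodes transaldolase (0.50, 0.86 and 0.61), and Rpe, an epimerase (0.55, 0.57 and 0.78). Of 22 genes of pyruvate entry, pyruvate dehydrogenase and the citrate cycle, 11, 15 and 9 were higher in KO and none was lower. Mpc2, a subunit of the mitochondrial pyruvate carrier, was higher by 0.93 ± 0.10, 1.17 ± 0.11 and 0.58 ± 0.11 (edgeR adjusted p = 3.71e-07, 1.25e-08 and 0.000266). Fh1, fumarate hydratase, was higher by 0.51, 0.80 and 0.53, Sdhc, a subunit of succinate dehydrogenase, by 0.58, 0.59 and 0.50, and Suclg1, a subunit of succinyl-CoA ligase, by 0.87 at day 14 alone.

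Of 8 genes of oxygen sensing, 1, 1 and 1 were higher and 2, 4 and 1 lower in KO at days 1, 14 and 28. Hif1a, which encodes the regulated subunit of hypoxia-inducible factor 1, had log2 changes of 0.03 ± 0.06, 0.09 ± 0.07 and 0.04 ± 0.07 and was called at no day (edgeR adjusted p = 0.756, 0.26 and 0.694). Egln3, a prolyl hydroxylase gene and a known target of that factor, was lower by -3.50 ± 0.36, -1.56 ± 0.22 and -2.60 ± 0.30 (edgeR adjusted p = 1.32e-07, 4.98e-06 and 6.27e-07). Egln1 was lower at days 1 (-0.91) and 14 (-0.62). At day 28 Egln1 was not called (-0.23, edgeR adjusted p = 0.164). That value was 0.15 without replicate 1 of WT and -0.51 without replicate 2. Epas1, which encodes the regulated subunit of hypoxia-inducible factor 2, was higher at all 3 days (0.78, 1.07 and 0.31), though at day 28 not without replicate 2 of WT (0.21, adjusted p = 0.0745). At day 28 Egln3 was at -1.82 without replicate 1 of WT and -3.07 without replicate 2. Of 4 genes tested of MYC and related factors (Myc, Max, Mxi1 and Mlxip), 0, 3 and 0 were higher and 2, 1 and 1 lower. Mxi1, a MYC antagonist, was lower throughout (-1.21, -0.53 and -0.74), while Myc was lower at day 1 (-0.65), higher at day 14 (0.43) and not called at day 28 (0.06). Mlxip, a glucose-responsive factor gene, was higher at day 14 alone (0.44). At day 28, 2 oxygen-sensing genes were lower and 2 transporters higher without replicate 2 of WT. Myc was higher at that day without replicate 1 of WT (0.23, adjusted p = 0.0388), and Mlxip without replicate 2 (0.28, adjusted p = 0.0231).

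Among the 8289 other genes averaging 4 or more on the log2 CPM scale, the 8 whose log2 CPM over the 12 libraries had the highest Pearson r with the mean of the 10 centred genes were Prdx5 (0.990), Bnip3 (0.985), Gapdh (0.979), Pdk1 (0.977), Fam162a (0.974), Samd9l (0.967), Tle3 (0.966) and Nrbp2 (0.966). The libraries share their groups, so this is a description of likeness and has no p. Bnip3, a mitophagy receptor gene, had KO minus WT values of -2.46, -0.77 and -1.30 at days 1, 14 and 28, and Prdx5, a peroxiredoxin gene, -0.61, -0.14 and -0.42.

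Several of these counts can hold reads of other genes. Of the runs of 50 bases in their main transcripts, 72.2% in Eno1, 68% in Pgk1, 41.5% in Pgam1, 34.4% in Pkm and 25.3% in Gpi1 also occur in transcripts of other genes, against 17.1% in Ldha, 13.9% in Aldoa, 7.51% in Tpi1, 0.0543% in Pfkl and none in Hk2. How the reads of such copies were counted is not given in the sources used here, so the levels of the genes with large shares are uncertain. The Eno1 copy with a row of its own, Eno1b, averaged 21.7 ± 0.886, 36.4 ± 4.70 and 12.3 ± 0.589 CPM in KO and 54.3 ± 1.19, 41.3 ± 4.96 and 28.7 ± 11.1 CPM in WT at days 1, 14 and 28. Gpi1, Aldoa and Tpi1 overlap the exons of a gene on the opposite strand (Gm26762, Fam57b and Spsb2), as do Gapdh, Hk1, Pfkm, Pfkp, Slc2a1, Txnip, Pgm1, Bnip3 and Prdx5 among the other genes named, and Pkm overlaps Gm49759 on its own strand. The strand setting of the counting is not given in the sources used here. Hk2 and Pfkl, with no such overlap and the smallest shares of such runs, were lower in KO at all 3 days. The Hk2 call at day 28 depended on single libraries. What part shared reads and overlaps had in the differences between the lines was not tested.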

How the data were processed

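RNA of 12 libraries was measured by poly(A) RNA-seq, with 8590132 to 15357433 counts each. The authors deposited whole-number read counts, a row for each gene symbol, made with STAR and featureCounts of Subread on mm10, per the submitters' processing notes, which also name edgeR. These sources give no annotation, strand setting or treatment of multi-mapped reads. All library columns were used (0 left out), and 3 transgene rows were kept out of the tests.

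The analysis used edgeR 4.0.16 (with limma 3.58.1) in R 4.3.3. After filterByExpr (minimum count 10, minimum total 15) 13772 genes remained, and TMM factors were applied. A quasi-likelihood model with 1 coefficient for each of 6 groups (6 residual degrees of freedom) was fitted to the 12 libraries. For 12 comparisons a two-sided quasi-likelihood F test was adjusted by Benjamini-Hochberg over all genes tested, with calls at 0.05. Standard errors were derived as the absolute log2 fold change over the root of F. Likeness used log2 CPM with a prior count of 2. The procedure was tested on simulated counts.

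The glycolytic genes and the other lists were chosen with earlier results of these data known. Named are all 10 genes, Gapdh, the tested isozyme genes of their steps, Piezo1, the 8 most similar genes and, from each other list, up to 3 called genes with the largest absolute changes at day 1, and at days 14 or 28 those among the 3 largest that average 5 or more in log2 CPM. Hif1a, Eno1b, Bpgm and Max were added after their values were seen. Positions and transcript lengths come from a GENCODE annotation of GRCm38 that held the symbols of 97.4% of the rows. Alternatives were other scalings, DESeq2 1.42.0, other filters, a replicate block, fits to each day and leaving out each library. Leaving out a WT library of day 28 for the other lists was added after seeing the data. With a library left out, the lone sample of its group is assumed to vary like the others.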

Additional observations from a re-analysis of the deposited data

Results flagged for a closer look

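For 21 values the test of the difference between the lines in their change over time passed the threshold in edgeR's fit. From day 1 to day 14 the KO change minus the WT change was 0.63 in Hk2, 0.65 in Gpi1, 1.25 in Pfkl, 1.14 in Aldoa, 0.72 in Tpi1, 0.82 in Pgk1, 0.92 in Pgam1, 0.92 in Eno1, 0.79 in Pkm and 0.92 in Ldha (log2). From day 14 to day 28 it was 0.52 in Hk2, -0.53 in Gpi1, -0.70 in Pfkl, -1.36 in Aldoa, -1.14 in Tpi1, -0.66 in Eno1, -0.79 in Pkm and -0.60 in Ldha. From day 1 to day 28 it was 1.15 in Hk2, 0.60 in Pgk1 and 1.03 in Pgam1. The values that involve day 28 move with single libraries of that day in both lines. Without replicate 2 of KO the day 1 to 28 value of Pgam1 was 0.41 (adjusted p = 0.485) and the day 14 to 28 value of Hk2 was 0.34 (adjusted p = 0.0691), neither called. Without replicate 1 of KO the day 14 to 28 values of Pfkl (-0.68) and Ldha (-0.56) and the day 1 to 28 value of Pgk1 (0.58) were not called. The 2 WT libraries stood apart from each other: without replicate 1 of WT at day 28 the day 14 to 28 value was -0.14 in Pfkl and -0.19 in Ldha, neither called, and without replicate 2 the day 1 to 28 value of Pgk1 was 0.31 and not called. Several other single libraries also ended the calls of Pfkl, Ldha, Pgk1 and Pgam1 in these comparisons. Why the libraries differ was not tested.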

How the results depend on the processing

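Over the alternatives other than a left-out library, 719 of the single-gene values kept their direction and their side of the threshold, 16 lost the call, 14 gained it and 1 reversed. With 1 library left out, the counts were 1337, 67, 19 and 17. The 10 genes were called lower in KO at day 1 under every alternative. With DESeq2's Wald test the number of genes called was 3 in place of 6 for KO minus WT at day 14, 2 in place of 4 for WT day 14 minus day 1, 5 in place of 8 for the difference of change from day 14 to 28 and 1 in place of 3 from day 1 to 28. Without a filter on low counts the last was 6. Leaving out 1 library gave 3 to 8 calls for KO minus WT at day 14, 0 to 5 for WT day 14 minus day 1, 5 to 9 for the difference of change from day 14 to 28 and 1 to 8 from day 1 to 28. In the fit to the 4 libraries of day 28 alone, 3612 of all genes were called, against 5646. Hk2 and Pgam1 lost their KO minus WT calls in that fit, and Pgam1 also did at day 28 with DESeq2's Wald test. For the differences of change over all genes, single left-out libraries gave as few as 1668 calls from day 1 to 14, against 2595, and 1691 from day 1 to 28, against 2759.

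The values that reversed were not called with all 12 libraries, but the difference of change of Pkm from day 1 to 28 was called at 0.29 without replicate 1 of WT at day 28 (adjusted p = 0.0104) and at -0.25 without replicate 2 (adjusted p = 0.0192). Over left-out libraries the difference of change from day 1 to 28 ran from -0.55 to 0.23 in Aldoa, -0.02 to 0.63 in Eno1, -0.25 to 0.29 in Pkm, -0.10 to 0.38 in Gpi1 and -0.75 to 0.04 in Tpi1. From day 14 to 28 it ran from -0.50 to 0.50 in Pgam1 and -0.51 to 0.16 in Pgk1. KO day 28 minus day 1 ran from -0.48 to 0.51 in Pgam1, KO minus WT at day 14 from -0.12 to 0.01 in Pkm, WT day 14 minus day 1 from -0.07 to 0.03 in Aldoa and -0.21 to 0.04 in Eno1, and WT day 28 minus day 14 from -0.21 to 0.02 in Hk2. The cause was not tested.

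With the replicate number as a block, the count of called genes was 10, 6 and 10 for KO minus WT at days 1, 14 and 28, and the reversed value was that of Pkm from day 1 to 28 (0.00). Same-numbered libraries shared little deviation (correlations from -0.04 to 0.112 over 15 pairs of groups, 1 of them over 0.1). The pair over 0.1 was KO and WT at day 28. The labels do not say whether samples were paired, and weak correlations cannot settle it. With 2 libraries in a group, the tests rely on the spread shared over genes and groups.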
